A study of Mus musculus with 36 samples.

Results

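Fibroblasts co-cultured with clone K were compared with fibroblasts co-cultured with clone M, using 4 libraries of each out of the 36 of the series. The fibroblasts were murine pancreatic fibroblasts of the C57BL/6 strain. They had shared a dish for 48 h with a GFP-expressing tumor sub-clone and were then isolated from it by flow sorting on GFP, and 4 further libraries came from fibroblasts in mono-culture. The labels give no genotype for the fibroblasts or the clones, no passage or age, and no statement that the 4 libraries of a group came from separate cultures, so p-values measure the spread between these libraries, which may be technical. The libraries are written K1 to K4 and M1 to M4 by their replicate number. The pair was chosen by the number of genes called against mono-culture, the lowest of the 7 clones, at 2763 for clone K and 3320 for clone M. The next clone, E, had 4622. These counts chose the pair and are given as a description.

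Fibroblasts of a tumor stroma can take up a contractile, matrix-producing state, marked by alpha smooth muscle actin, or a state that secretes cytokines and chemokines. Tumor epithelium signals to them through Hedgehog ligands, which are released by the epithelium and act through Gli factors in the fibroblast, and through Notch, whose ligands and receptors sit on touching cells. TGF-beta and stretch, the latter through YAP and TEAD, drive the contractile program. ATF4 is a transcription factor of the amino acid and endoplasmic reticulum stress response.

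Library totals were 15602021 to 21053076 counts with clone K and 12532122 to 17137810 with clone M. Summed fibroblast markers (13 of 13 tested) lay at 20540 to 30576 CPM (counts relative to the TMM-scaled library total, TMM being a scaling between libraries) with clone K, 22111 to 32442 with clone M and 21950 to 23751 in mono-culture. Summed epithelial markers were 63.4, 27.9, 265 and 322 CPM in K1 to K4 and 155, 63.0, 572 and 302 CPM in M1 to M4, against 8.67 to 11.3 in mono-culture. The groups overlap in this sum, and M3 is the highest of the 8 libraries. None of the 12 epithelial markers tested was called between the groups by edgeR (median log2 fold change -0.63), and Cldn4 and Esrp1 had 0 counts in the 8 libraries. Leukocyte, endothelial, acinar and Schwann cell markers summed to at most 20.97 CPM in any of the 8, with 0 members called. Pericyte markers summed to 147 to 298 CPM with clone K and 305 to 494 with clone M, most of it Notch3, and none was called. K4 stood apart from K1 to K3, with a chi-square per degree of freedom over genes of 33.5 to 58.3. Pairs among K1 to K3 had 12.3 to 25.6, and pairs of clone M libraries 11.7 to 29.3. K4 and M3 are named below where a value rests on them. In bulk RNA, fewer cells of a type and less RNA per cell cannot be told apart.

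Of 14439 genes tested with edgeR's quasi-likelihood test, 323 were called at an adjusted p-value of 0.05 (2.24%), 195 higher with clone K (1.35%) and 128 lower (0.886%). A change of at least 2-fold was found in 61 of the higher genes (0.422%) and 60 of the lower (0.416%). The median log2 fold change of all genes was -0.0042. The 4 clone K and 4 clone M libraries did not overlap in CPM for 1385 genes (9.59%), 739 higher with clone K (5.12%) and 646 lower (4.47%), and 267 of the 1385 were also called. The count of calls depended on single libraries: it was 125 without M3, 164 to 179 without K1, K2 or K3, 201 without M1, 207 without M4 and 538 without K4. Without both K4 and M3, an alternative chosen after seeing the data, 196 genes were called, 169 of them among the 323. With a term for replicate number added to the model (a replicate block), 721 genes were called, the 323 among them. Among the 21 pairs of the 7 clones, K against M had the third lowest count, after H against V (56) and E against N (183).

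**Figure D1:**
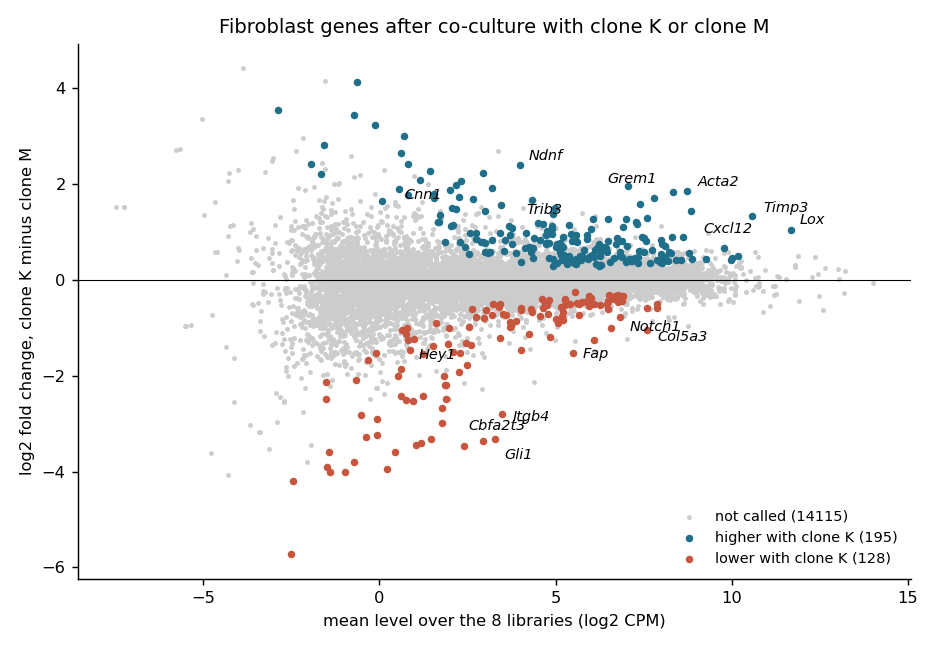
Log2 fold change (clone K minus clone M, y axis) against the mean level over the 8 libraries (log2 CPM, x axis) for the genes tested with a count in these libraries. Blue points are the 195 genes called higher with clone K and red points the 128 called lower. The lower calls reach further from 0 (Gli1 -3.33, Cbfa2t3 -3.36) at low levels, and the abundant calls (Lox, Timp3) are higher with clone K.

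Among Hedgehog genes Gli1 was lower with clone K, with the smallest p-value of the genes tested, while most of the list was not called. Gli1 (chr10:127329882-127341974 of GRCm38, minus strand), a transcription factor that is itself a standard target of the pathway, was 2.17, 1.30, 1.85 and 1.71 CPM in K1 to K4 and 12.3, 12.02, 32.5 and 14.5 CPM in M1 to M4. Every clone M library lay above every clone K library, and the clone K level was close to the mono-culture range of 0.990 to 1.74 CPM. Between the groups its log2 fold change came to -3.33 (SE 0.34) at an adjusted p of 7.79e-07, and the call held in each of the 19 alternatives. The alternative that only loosens the threshold to 0.1 cannot end a call. Of the 13 Hedgehog genes tested 2 were called, both lower with clone K, beside 0.886% of all genes called lower. Of the 13, 6 had a positive and 7 a negative log2 fold change, with a list median of -0.03. Without K4 and M3 together 1 stayed called. The receptor Ptch1, itself a common target, had a log2 fold change of -0.23 (adjusted p = 0.508), the signal transducer Smo -0.06 and the factors Gli2 and Gli3 -0.14 and 0.13, these 4 named after their values were seen. M3, the library with the highest epithelial sum, was also highest in Gli1. K4 and M4, whose epithelial sums were 322 and 302 CPM, had Gli1 at 1.71 and 14.5 CPM, and M2, with a sum of 63.0, had 12.02. The sum was mostly Krt18 and Krt8, at 143 and 135 CPM in K4 and 130 and 108 CPM in M4. Other epithelial markers were less alike. Krt19 was lower in K4 than in M4, with a log2 fold change of -2.13 between the groups. Cdh1, at low levels, was higher with clone K without overlap (log2 fold change 4.15), and neither was called. Similar sums therefore do not show equal epithelial RNA. The part of epithelial RNA in the Gli1 difference was not tested.

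The Notch list had 5 of 13 members called, all lower with clone K, beside 0.886% of all genes called lower. Its median log2 fold change was -0.72. Hey1 (chr3:8663359-8667256, minus strand), a repressor switched on by Notch, was 3.72, 4.48, 2.11 and 2.29 CPM with clone K and 5.89, 8.01, 7.45 and 9.77 CPM with clone M. The groups did not overlap (log2 fold change -1.31, SE 0.23, adjusted p = 0.00168), and the call held in each of the alternatives that tested the gene. Mono-culture had 0.110 to 0.365 CPM, so clone K was between mono-culture and clone M. The receptor Notch1 was 96.1, 95.4, 82.5 and 64.5 CPM with clone K and 141, 155, 159 and 120 CPM with clone M (log2 fold change -0.77, adjusted p = 0.0134), a call that was lost without M3 (adjusted p = 0.0678). Heyl, a relative of Hey1 named after its values were seen, was 0.315 to 2.14 CPM with clone K and 4.40 to 7.10 CPM with clone M (log2 fold change -2.01). The ligand Jag2 and the feedback inhibitor Nrarp were low and rested on M3. Jag2 was 0.360 to 0.801 CPM with clone K and 1.80, 1.09, 8.13 and 2.31 CPM in M1 to M4. Its log2 fold change went from -2.52 to -1.57 without M3 (adjusted p = 0.057). Nrarp was 0.455 to 2.29 CPM with clone K and 2.48, 2.06, 14.6 and 5.29 CPM in M1 to M4. It went from -2.20 to -1.28 without M3 and was lost without K1, K2, K3 or M3 (adjusted p = 0.0617 to 0.287). Without M3, 1 member of the list stayed called, and 3 did without K1 or K3. The part of epithelial RNA in these low genes was not tested.

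**Figure D2:**
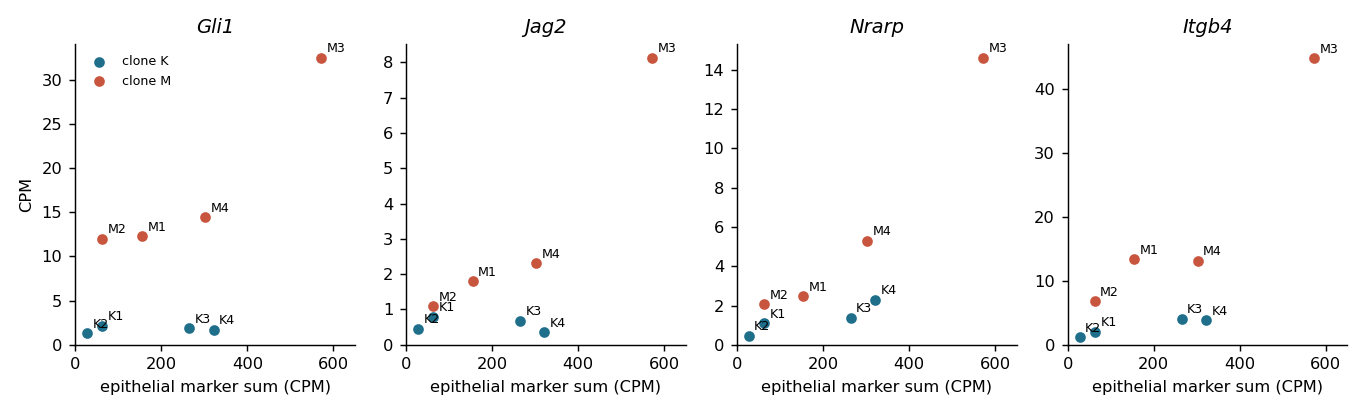
Level of 4 genes (CPM, y axes) against the summed epithelial markers of the same library (CPM, x axes), with 1 point for each of the 8 libraries. M3 lies at the right, at a sum of 572, and is the highest point in each panel. In the Gli1, Jag2 and Itgb4 panels the clone M points at 63.0 to 302 CPM of the sum also lie above the clone K points. In the Nrarp panel they overlap, with K4 at 2.29 CPM and M2 at 2.06. The calls of Jag2, Nrarp and Itgb4 were lost without M3. The part of epithelial RNA in these genes was not tested.

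Other genes lower with clone K included Fap, Cbfa2t3, Itgb4 and Col5a3. Fap (chr2:62500943-62574075, minus strand), a surface protease used as a marker of activated fibroblasts, was 21.5, 33.7, 19.9 and 18.8 CPM with clone K and 56.6, 75.7, 56.2 and 79.6 CPM with clone M. Both groups lay above the mono-culture range of 0.640 to 1.52 CPM, and they did not overlap (log2 fold change -1.52, SE 0.21, adjusted p = 8.84e-05). Cbfa2t3 (chr8:122625141-122699109, minus strand), a transcriptional corepressor, was 0.848 to 1.75 CPM with clone K and 12.3 to 16.1 CPM with clone M (log2 fold change -3.36, SE 0.44, adjusted p = 6.12e-05). The calls of Fap and Cbfa2t3 held in each alternative that tested them. Itgb4, an integrin subunit typical of epithelium, was 1.17 to 4.07 CPM with clone K and 13.4, 6.798, 44.8 and 13.1 CPM in M1 to M4. Its log2 fold change of -2.79 became -1.97 without M3, where it was not called (adjusted p = 0.0914). Col5a3 (chr9:20770050-20815067, minus strand), a fibrillar collagen chain, was 137, 137, 141 and 90.6 CPM with clone K and 277, 265, 294 and 207 CPM with clone M (log2 fold change -1.04, adjusted p = 0.00641), and was not called without K4 and M3 together (adjusted p = 0.0706). Dtx4, a Deltex family ubiquitin ligase, was 30.2 to 52.1 CPM with clone K and 79.9 to 117 CPM with clone M. Hic1, a transcriptional repressor, was 52.8 to 73.0 CPM with clone K and 117 to 141 CPM with clone M. Its call was lost without K1 or K3 (adjusted p = 0.0525 and 0.0617). The chemokine Ccl11 was 0.141 to 0.540 CPM with clone K and 2.17 to 6.34 CPM with clone M (log2 fold change -3.40, adjusted p = 0.00737).

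**Figure D3:**
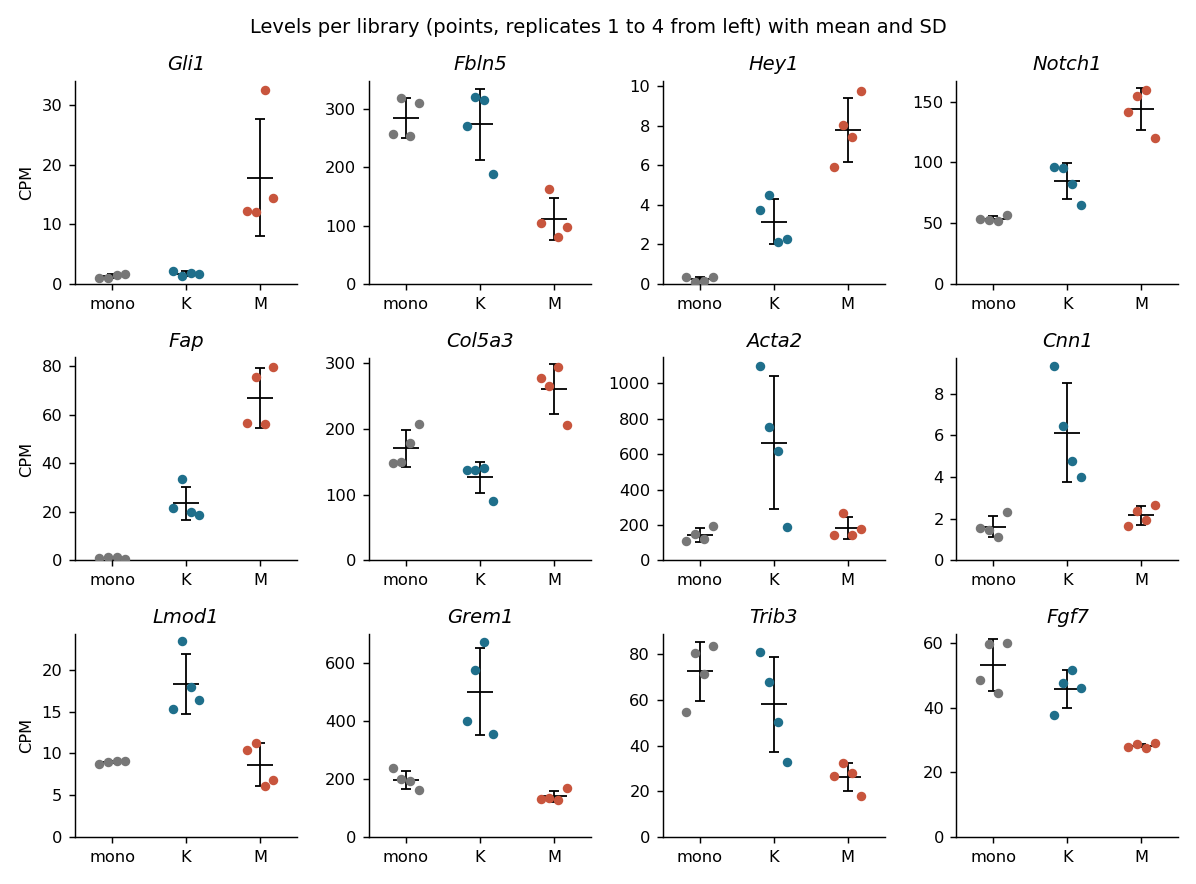
CPM (y axes, from 0) of 12 genes in mono-culture, clone K and clone M, with 1 point per library and the mean and SD of 4 libraries. Clone K lies near mono-culture for Gli1 and between mono-culture and clone M for Fap, Hey1 and Notch1. Clone K is highest for Acta2, Cnn1, Lmod1 and Grem1, and K4 at 190 CPM lies within the clone M range for Acta2.

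The contractile list had 7 of 15 members called, all higher with clone K, beside 1.35% of all genes called higher. Its median log2 fold change was 0.58, with 12 members positive and 3 negative. Among the negative ones Des, desmin, was lower with clone K without overlap but not called (log2 fold change -0.59, adjusted p = 0.0785). Cnn1 (chr9:22099216-22109630, plus strand), the smooth muscle protein calponin, was 9.33, 6.43, 4.76 and 4.003 CPM in K1 to K4 and 1.67, 2.37, 1.95 and 2.68 CPM in M1 to M4. Lmod1 (chr1:135324807-135368065, plus strand), a leiomodin that nucleates actin, was 15.3, 23.5, 18.02 and 16.4 CPM with clone K and 10.4, 11.3, 6.13 and 6.79 CPM with clone M. Neither gene overlapped between the groups (log2 fold changes 1.501 and 1.08, adjusted p = 0.00188 and 0.00631), and both calls held in each alternative. Acta2 (chr19:34241090-34255590, minus strand), alpha smooth muscle actin, was 1096, 754, 619 and 190 CPM with clone K and 143, 271, 143 and 180 CPM with clone M. K4 lay inside the clone M range, and mono-culture, at 109 to 195 CPM, was below K1 to K3. The log2 fold change was 1.85 (SE 0.38, adjusted p = 0.00641), and the call was lost when the 8 libraries were fitted alone (adjusted p = 0.118). Tpm2, a tropomyosin, had a log2 fold change of 0.59 (adjusted p = 0.00533) and was also not called in that fit (adjusted p = 0.0677). Tagln, Myl9 and Cald1, named after their values were seen, had log2 fold changes of 1.96, 1.22 and 0.49. The number of members called was 4 without K1, K2, M1 or M3, 9 without K4 and 3 in the fit of 8 libraries.

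Promoters of list members were read from RefSeq (GRCm38.p6, the 250 bases before the start). The CArG box, the motif of serum response factor, was searched on both strands after the values were seen. Only the exact pattern of CC, 6 bases of A or T, and GG was counted, and 439 of 27025 genes (1.62%) held it. Of 13 contractile genes with a promoter 2 held it, and of the 6 called ones 1. The Myl9 promoter (chr2:156775214-156775463, plus strand) is shown with that box in capitals, and the Acta2 promoter (chr19:34255374-34255623, minus strand) as a member without an exact match in this window. The Acta2 window does hold ccctatatgg and ccttgtttgg, each 1 base off the pattern, and such near matches were not counted.
Myl9: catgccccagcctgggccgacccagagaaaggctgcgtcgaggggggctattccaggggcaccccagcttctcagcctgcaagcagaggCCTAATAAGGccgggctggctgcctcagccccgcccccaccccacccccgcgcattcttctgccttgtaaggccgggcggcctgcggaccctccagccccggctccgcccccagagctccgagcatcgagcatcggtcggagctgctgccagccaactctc
Acta2: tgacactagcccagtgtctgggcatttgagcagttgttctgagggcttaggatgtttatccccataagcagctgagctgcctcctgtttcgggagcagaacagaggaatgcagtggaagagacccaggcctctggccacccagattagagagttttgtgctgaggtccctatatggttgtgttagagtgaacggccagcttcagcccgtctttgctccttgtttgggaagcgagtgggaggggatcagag

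The YAP and TEAD list, which holds these factors and some of their regulators beside targets, had 4 of 19 members called. All were higher with clone K, beside 1.35% of all genes called higher. The list median log2 fold change was 0.21. Ankrd1, a muscle ankyrin-repeat protein, was 265, 181, 177 and 100 CPM with clone K and 58.8, 64.2, 95.3 and 82.5 CPM with clone M. The groups did not overlap (log2 fold change 1.26, adjusted p = 0.00583), and the call was lost only in the fit of 8 libraries (adjusted p = 0.0793). Ctgf, a matricellular protein that is also on the TGF-beta list, was 429, 366, 478 and 78.1 CPM in K1 to K4 and 78.1, 107, 126 and 105 CPM in M1 to M4. K4 was no higher than the lowest clone M library, and the call (log2 fold change 1.70, adjusted p = 0.0238) was lost without any of K1, K2, K3, M1, M3 or M4 (adjusted p = 0.063 to 0.0961). F3, tissue factor, was 82.9 to 99.0 CPM with clone K and 54.3 to 64.6 CPM with clone M (log2 fold change 0.66), and was not called without M3 (adjusted p = 0.0517). Ajuba (0.45, adjusted p = 0.0438) lost its call without 7 of the 8 libraries, K4 being the exception (adjusted p = 0.0557 to 0.198). Mono-culture means were 152 CPM for Ankrd1, 128 for F3 and 64.6 for Ajuba, above the clone M means of 75.2, 58.6 and 44.0. The clone K means of these were 181, 92.7 and 60.0 CPM. Ctgf went the other way, its mono-culture mean of 57.5 CPM lying below both groups' means. The list had 1 member called without M3 and in the fit of 8 libraries, 2 without K1, K2, K3, M1 or M4, and 6 without K4. Ltbp2, which binds fibrillin, was the other TGF-beta list member called (2 of 21, both higher, beside 1.35% of all genes). It was 263, 277, 255 and 126 CPM with clone K and 105 to 152 CPM with clone M. Its call was lost without K1, K2, K3, M1, M3 or M4 (adjusted p = 0.0636 to 0.088), which left 0 members of that list called by edgeR. The TGF-beta list went both ways, with a median log2 fold change of 0.15, 13 members positive and 8 negative. Without overlap in CPM, 4 of its members were lower with clone K (beside 4.47% of all genes) and 1 was higher (beside 5.12%).

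Matrix genes went both ways. Of 27 fibrillar matrix genes 2 were called, beside 2.24% of all genes, with Col5a3 lower and Fmod higher with clone K. Fmod, the small proteoglycan fibromodulin, was 325, 258, 284 and 145 CPM with clone K and 98.4, 107, 49.5 and 84.5 CPM with clone M (log2 fold change 1.58, adjusted p = 0.0261). Lox, which crosslinks collagen and elastin, was 3152, 4920, 4892 and 4656 CPM with clone K and 2173, 2617, 1534 and 2178 CPM with clone M (log2 fold change 1.05, adjusted p = 0.0434). Timp3, an inhibitor of matrix proteinases, was 2930, 2601, 2346 and 946 CPM with clone K and 791, 1397, 601 and 712 CPM with clone M (log2 fold change 1.33, adjusted p = 0.0187). Fmod and Lox did not overlap between the groups, whereas K4 lay within the clone M range for Timp3. Calls of these 3 genes were fragile. Fmod and Timp3 were lost without K1, K2, K3, M1, M3 or M4 (adjusted p = 0.0595 to 0.141 and 0.0527 to 0.103), and Lox without K2, K3, K4, M1, M3 or M4 (0.0534 to 0.194). Fbln5, an elastic fiber protein on no list, was 271, 321, 315 and 189 CPM with clone K and 105, 163, 81.2 and 97.5 CPM with clone M. It did not overlap and held its call in each alternative (log2 fold change 1.30, SE 0.19, adjusted p = 0.000144). Of 16 basement membrane genes 0 were called, beside 2.24% of all genes, with a median of -0.15.

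The called members of the BMP list and of the growth factor and receptor list were higher with clone K. Grem1 (chr2:113746164-113758646, minus strand), an antagonist of BMP ligands, was 399, 576, 672 and 356 CPM with clone K and 132, 135, 126 and 167 CPM with clone M. Mono-culture had 161 to 236 CPM, so most clone M libraries lay below it and the clone K libraries above it. The log2 fold change was 1.84 (SE 0.25, adjusted p = 8.84e-05), and the call held in each alternative. The ligand Bmp4 was 26.01, 29.6, 52.3 and 36.2 CPM with clone K and 12.7, 16.9, 24.1 and 16.9 CPM with clone M (log2 fold change 1.03, adjusted p = 0.0141). It was not called without K3 or M1 (adjusted p = 0.0749 to 0.1). These were the 2 of 19 BMP genes called, beside 1.35% of all genes called higher, and the list median was 0.44. Of 30 growth factors and receptors 4 were called, all ligands and all higher with clone K, beside the same 1.35% of all genes. Fgf7 (chr2:126034658-126091185, plus strand), a fibroblast factor that acts on epithelium, was 37.8, 47.7, 51.7 and 46.0 CPM with clone K and 27.9, 28.7, 27.7 and 28.9 CPM with clone M. Pdgfa and Pdgfc, ligands of PDGF receptors, had log2 fold changes of 0.66 and 0.59 (adjusted p = 0.00524 and 0.00651). Fgf7 did not overlap between the groups (log2 fold change 0.69, adjusted p = 0.00916). Fgf7 was not called without K4 and M3 together (adjusted p = 0.0583) and Pdgfa not in the fit of 8 libraries (adjusted p = 0.0765). Cxcl12, a chemokine that retains leukocytes, was 682, 743, 637 and 629 CPM with clone K, 248, 388, 160 and 204 CPM with clone M and 1278 to 1666 CPM in mono-culture. Its call (log2 fold change 1.43, adjusted p = 0.0364) was lost without K1, K2, K3, M1, M3 or M4 (adjusted p = 0.0701 to 0.173). Ndnf (chr6:65671590-65712326, plus strand), a secreted neurotrophic glycoprotein, had the highest log2 fold change among the called genes that are named, 2.39 (SE 0.40, adjusted p = 0.00118), with 18.1 to 33.7 CPM with clone K and 2.35 to 7.83 CPM with clone M.

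ATF4 targets had 6 of 35 members called, all higher with clone K, beside 1.35% of all genes called higher. The log2 fold change was positive in 35 of 35 (median 0.58). Chac1 (chr2:119351229-119354381, plus strand), which degrades glutathione, was 59.0, 49.9, 46.3 and 20.2 CPM with clone K and 17.7, 20.8, 18.2 and 10.9 CPM with clone M. Trib3 (chr2:152337422-152344032, minus strand), a pseudokinase that restrains ATF4, was 81.0, 67.8, 50.5 and 32.8 CPM with clone K and 26.5, 32.4, 28.01 and 18.05 CPM with clone M. K4 overlapped clone M in Chac1 and was just above it in Trib3. The log2 fold changes were 1.37 (adjusted p = 0.00737) and 1.14 (adjusted p = 0.0116). Mono-culture had 31.8 to 47.4 CPM of Chac1 and 54.7 to 83.5 CPM of Trib3, above the clone M range in both. Atf4 itself was 602, 568, 592 and 370 CPM with clone K and 363, 360, 404 and 309 CPM with clone M, K4 again inside the clone M range (log2 fold change 0.57, adjusted p = 0.0206). Phgdh, the first enzyme of serine synthesis, was 152 to 251 CPM with clone K and 126 to 137 CPM with clone M (log2 fold change 0.61, adjusted p = 0.0206). Ddit3 and Slc6a9, named after their values were seen, had log2 fold changes of 0.81 and 0.87. Chac1 lost its call only in the fit of 8 libraries (adjusted p = 0.0937), where Trib3 (0.102) and Atf4 (0.0982) lost theirs too. Trib3 was also lost without K1 or M4 (adjusted p = 0.06 to 0.0788). Atf4 was lost without K1, K2, K3, M1 or M4 (0.052 to 0.094) and Phgdh without K1, K3, M1, M3 or M4 (0.0568 to 0.141). The number called was 1 without K1 or M4, 2 without K3 and in the fit of 8 libraries, 3 without K2, M1 or M3, and 18 without K4. Of 20 aminoacyl-tRNA synthetases, many of them also ATF4 targets, 0 were called, beside 2.24% of all genes, with a median of 0.38.

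The composite element through which ATF4 binds with a C/EBP partner was searched as TGATGNAAN on both strands. It was held by 1052 of 27025 genes (3.89%) by 9 of the 31 list members with a promoter and by 1 of the 6 called members. The Chac1 promoter (chr2:119350992-119351241, plus strand) is shown with the match, which lies on the opposite strand, in capitals. The Trib3 promoter (chr2:152344061-152344310, minus strand) is shown as a called member with no exact match in this window. The Trib3 window does hold tggtgcaat and the Chac1 window tgacgcaat, each 1 base off the pattern, and such near matches were not counted.
Chac1: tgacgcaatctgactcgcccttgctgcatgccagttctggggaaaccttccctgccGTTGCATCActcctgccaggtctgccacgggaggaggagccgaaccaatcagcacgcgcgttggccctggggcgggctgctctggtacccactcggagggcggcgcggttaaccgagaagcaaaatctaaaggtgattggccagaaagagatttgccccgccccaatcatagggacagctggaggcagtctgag
Trib3: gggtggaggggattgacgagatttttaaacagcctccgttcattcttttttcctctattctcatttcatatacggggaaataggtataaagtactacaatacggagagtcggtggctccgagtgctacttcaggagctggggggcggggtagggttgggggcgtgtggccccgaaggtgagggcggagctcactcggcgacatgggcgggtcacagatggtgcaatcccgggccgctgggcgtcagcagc

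**Figure D4:**
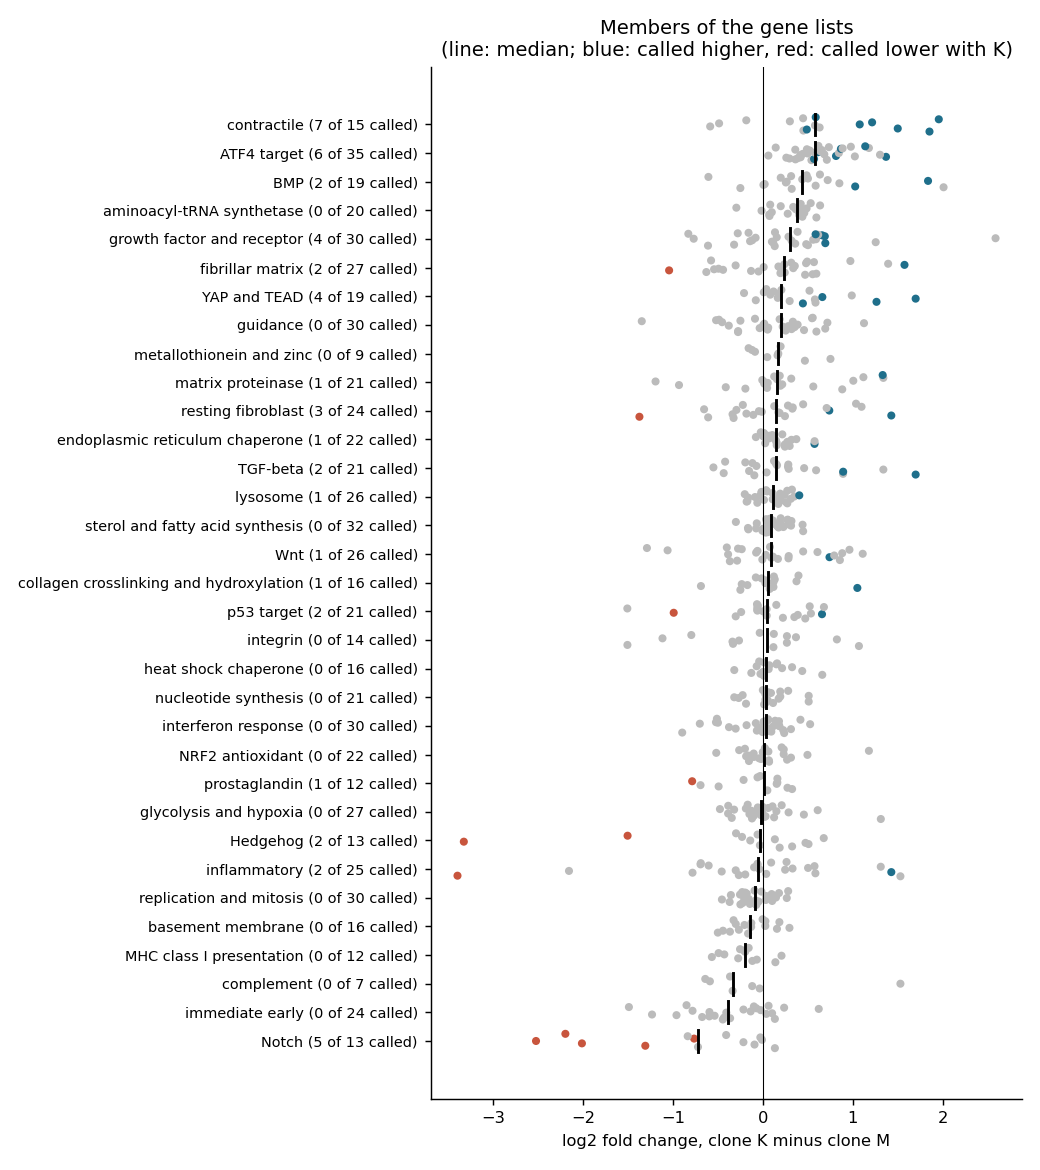
Log2 fold change (clone K minus clone M, x axis) of each tested member of the 33 pathway lists, ordered by median (black line), with called members in blue (higher) or red (lower). Contractile genes and ATF4 targets have the highest medians, 0.58 each, and Notch genes the lowest, -0.72, beside -0.0042 over all genes.

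Many lists held no call, beside 2.24% of all genes called. At that share, a list of 7 to 32 genes with no call is not set apart from the other genes by its count of calls. By that count the same holds for the lists below with a single member called. Overlap in CPM reads otherwise for 2 of them. Without overlap, 9 of 26 lysosome genes were higher with clone K and 0 lower, beside 5.12% of all genes higher. Likewise 4 of 12 prostaglandin genes were lower and 0 higher, beside 4.47% of all genes lower. These counts are given as a description. Interferon response genes (0 of 30, median log2 fold change 0.03), MHC class I presentation (0 of 12, -0.20), replication and mitosis (0 of 30, -0.09), glycolysis and hypoxia (0 of 27, -0.02), sterol and fatty acid synthesis (0 of 32, 0.09), NRF2 antioxidant genes (0 of 22, 0.01), nucleotide synthesis (0 of 21, 0.04) and heat shock chaperones (0 of 16, 0.04) had the medians given. Immediate early genes (0 of 24) had a median of -0.39 and complement genes (0 of 7) -0.34. Integrins (0 of 14), guidance genes (0 of 30) and metallothionein and zinc genes (0 of 9) had medians of 0.04, 0.20 and 0.16. A single member was called in 6 lists: Lef1 higher among 26 Wnt genes, Lox among 16 crosslinking genes, Timp3 among 21 proteinase genes, Dnajb11 higher among 22 endoplasmic reticulum chaperones, Lamp1 higher among 26 lysosome genes, and the prostacyclin receptor Ptgir lower among 12 prostaglandin genes. Of 25 inflammatory genes, Cxcl12 was higher and Ccl11 lower. Of 21 p53 targets, Cdkn2a was higher and Ddit4l lower. Of 24 genes of resting fibroblasts, Cxcl12 and the lipase Lpl were higher and Apoe lower. Dnajb11, Ccl11 and Ddit4l kept their calls without any single library. Lef1 lost its call without K1, K2, K3, M1, M3 or M4 (adjusted p = 0.0555 to 0.173), Lamp1 without M3 (0.0738), Ptgir without K1, K2, M1 or M3 (0.102 to 0.158), Cdkn2a without K2, K3, M3 or M4 (0.0738 to 0.152), Lpl without K2, K3, M3 or M4 (0.0592 to 0.09), and Apoe without K1, K3, K4, M1 or M4 (0.0574 to 0.112).

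Against mono-culture, given here as a description, the genes split by direction. Of the 128 genes lower with clone K, mono-culture lay below both co-cultures in 80, between them in 44 and above both in 4, and clone K was the nearer to mono-culture in 106. Of the 195 higher genes, mono-culture lay above both in 58, between them in 83 and below both in 54, with clone K nearer in 101. Across the 9 groups, Gli1 had its highest mean with clone M, 17.8 ± 9.84 CPM (SD, n = 4), next to 16.3 ± 3.56 with KPC1 and 14.2 ± 4.96 with clone V, which are within these SDs of it, and its second lowest with clone K, 1.76 ± 0.36. Fap was highest with clone M, 67.0 ± 12.4 CPM, and 54.5 ± 11.7 with KPC1. Acta2 was highest with clone K, 665 ± 375 CPM, and Cnn1 too, 6.13 ± 2.36 CPM. Clone V had 583 ± 199.8 and 4.22 ± 1.42 CPM of these, so neighbors in this order overlapped within their SDs. Lmod1 was 18.3 ± 3.62 CPM with clone K and 8.97 ± 0.161 in mono-culture, the next. Grem1, Fgf7, Bmp4, Fbln5, Atf4, Trib3, Chac1 and Phgdh each had their lowest mean of the 9 groups with clone M, but some neighbors in the order were not apart beyond the SDs. Fgf7 was 28.3 ± 0.60 CPM with clone M and 29.9 ± 2.31 with clone V. Bmp4 was 17.6 ± 4.74 CPM with clone M and 19.3 ± 0.849 with clone H. Fbln5 was 112 ± 35.5 CPM with clone M, 122 ± 19.98 with KPC1 and 134 ± 13.1 with clone T.

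**Figure D5:**
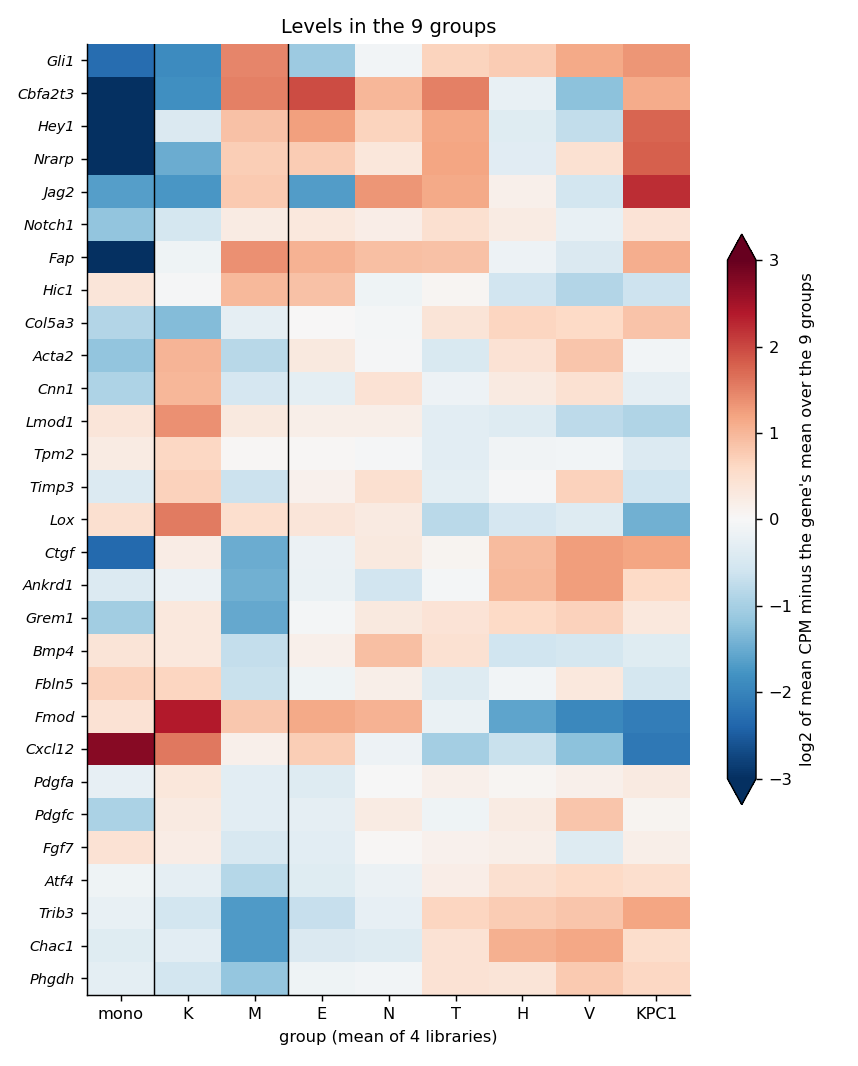
Mean level of 29 genes in the 9 groups (4 libraries each), as log2 of the mean CPM minus the mean of these values over the groups (red higher, blue lower, colors cut at 3). Clones K and M stand beside mono-culture at the left. Clone M is low in Grem1, Trib3, Chac1 and Phgdh and high in Gli1 and Fap, and clone K is high in Fmod, Lox and Lmod1.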

How the data were processed

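RNA of sorted fibroblasts was sequenced as poly(A)-selected, strand-specific paired ends of 76 bases. Unscaled integer counts of reads by gene were deposited by the authors, together with deposited RPKM values (reads relative to gene length and library total) that carry no scaling beyond library size. The submitters' processing notes name STAR, featureCounts, edgeR and mm10, without versions. Whether counting used strand is not given in the sources used here. Gene positions are those of GENCODE M21 on GRCm38.

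Counts were filtered (filterByExpr) and TMM-scaled, and edgeR's quasi-likelihood model took all 36 libraries, each of the 9 groups having its own term (edgeR 4.0.16, R 4.3.3). P-values were two-sided and adjusted by Benjamini-Hochberg over 14439 genes. SE came from the fold change and F-statistic. The procedure was tested on simulated data. Alternatives used DESeq2 1.42.0 and limma 3.58.1 among others. The pair, gene lists and tests were chosen with earlier results of these data known. Named genes were the 12 highest and 12 lowest fold changes among called genes with at least 5 CPM and no overlap, the 5 smallest p-values and 5 most abundant genes (at least 1.5-fold) per direction, up to 4 called members per list and direction or the 2 most abundant where none was called, and the cell markers. Others are marked where they appear. Some genes that the rule names are not reported here.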

Additional observations from a re-analysis of the deposited data

Results flagged for a closer look

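In groups of 4 libraries, a value was examined when the gap of the highest or lowest library to its nearest neighbor took a larger part of the group's range than Dixon's 95% limit for 4 values. Of 208 sets of 4 libraries, 14 passed, where chance gives about 10.4. With clone K, replicate 4 was the low library for Fam150a (gap 0.841 of the range), Col5a3 (0.928), Hspb6 (0.837), Atf4 (0.852), Ltbp2 (0.856), the growth factor list score (0.857) and the integrin list score (0.930). Scores average log2 CPM over a list. Replicate 1 was low for Lox (0.851), and replicate 3 was low for the replication and mitosis score (0.866). With clone M, replicate 3 was the high library for Gli1 (0.880), Arhgap6 (0.887) and Casp12 (0.851). Replicate 2 was high for the complement score (0.865), and replicate 1 was low for the p53 target score (0.844).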

How the results depend on the processing

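None of 62 called named genes changed direction under the 19 alternatives, where tested, and 26 of them stayed called in each alternative that tested them. The threshold of 0.1 is the main fit with a looser cutoff, so it could neither end a call nor change a direction. Calls numbered 583 (350 higher, 233 lower) at a threshold of 0.1, 199 (112 higher) with only the 8 libraries, and 537 (312 higher, 225 lower) with DESeq2. With only the 8 libraries, 146 of the 323 stayed called and 20 named genes lost their calls. Among these were Bmp4, Timp3, Ltbp2, Ctgf, Itgb4, Jag2, Nrarp, Lef1, Cdkn2a, Lamp1, Dnajb11 and Ajuba. Deviations from the group means correlated at 0.47, 0.58 and 0.28 for K2 with M2, K3 with M3 and K4 with M4, and 3 of 4 clone K libraries correlated best with their own number, a hint of pairing from the data. K1 and M1 correlated at -0.089. The sample titles number the co-cultures replicate by replicate, with clone K next to clone M each time, but the labels name no shared day or culture. The numbers were not taken as pairs, and whether they are pairs is not settled here. The replicate block gave 721 calls (452 higher, 269 lower, 107 at least 2-fold higher), which include the 323, with 21 ATF4 targets, 11 contractile genes and 9 growth factors and receptors called. At least 2-fold higher calls were 94 at the threshold of 0.1 and 29 with limma on log2(RPKM + 1). At least 2-fold lower calls were 18 with 10 counts in every library, 29 with only the 8 libraries and 22 with limma on log2(RPKM + 1). Leaving out 1 library gave 125 to 538 calls, 78 to 373 higher, 47 to 165 lower, 34 to 110 at least 2-fold higher and 26 to 77 at least 2-fold lower. Without K4 and M3 together there were 196, 62 lower, and 29 at least 2-fold lower. List medians moved by more than the replicate SD as follows. With 10 counts in every library they were 0.31 for BMP, -0.22 for Notch, -0.24 for leukocytes, -0.0288 for acinar cells and -0.41 for pericytes. With limma on log2(RPKM + 1) they were -0.13 for complement, 0.27 for BMP, -0.52 for Notch and 0.14 for growth factors. The acinar median was -0.030 with only the 8 libraries. Without K4 and M3 together they were -0.49 for Notch, 0.44 for growth factors and -0.45 for pericytes. Leaving out 1 library gave -0.40 to -0.13 for complement, -0.83 to -0.55 for Notch, 0.19 to 0.38 for growth factors, 0.0055 to 0.17 for metallothioneins (0.24 without K4 and M3), 0.092 to 0.71 for acinar cells and -0.28 to 0.079 for pericytes. The cause of these changes was not tested.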
